A study of Solanum lycopersicum and Solanum tuberosum and Capsicum annuum and Nicotiana tabacum with 10 samples.

Results

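A set of 24 potato genes known only by a locus symbol gave a negative log2 ratio against potato in leaves of petunia, N. benthamiana, tobacco, pepper and tomato alike. They were chosen by these measured values: a gene had to have a single symbol starting with LOC, and the mean log2 ratio of its arrays had to lie below -0.5 in each of the 5 species. The rule was met by 24 of 339 such genes on the array, or 7.34% of the 327 with a value in every species. Of all 9454 features measured in every species, 942 (9.96%) had all 5 species means below -0.5, where a feature is 1 named gene or 1 unnamed clone. Values against potato are therefore given as a description, with no test.

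Mature leaves of the 5 query species were each hybridized on 2 arrays of potato cDNA clones, 10 arrays in all, with leaf RNA of potato in the other channel. All plants were untreated and were grown at 25°C with 16 h of light and 8 h of darkness for 4 to 6 weeks. The query species carried Cy3 and potato carried Cy5 on every array, so a dye effect of a gene was not balanced by a swap. One potato extract served all replicate 1 arrays and a second served all replicate 2 arrays, and each species had its own extract for each replicate. The labels give no plant numbers, variety or pooling, so the spread between the arrays of a species may be technical.

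Each value is a log2 ratio between the channels as the authors deposited it, and its direction is not stated. A negative value likely means a brighter signal in the query species than in potato, because the array titles name potato first and because limma, the package the authors used, forms the ratio of the red channel (Cy5, potato) over the green. Potato sat in every ratio, so a low potato signal would lower all 5 species at once. Low potato RNA, a dye effect of the probe, cross-hybridization of the probe and high RNA in all query species cannot be told apart here.

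A LOC symbol is a placeholder that NCBI builds from a gene's database number when no curated name exists, so it says nothing of what the gene does. In heterologous hybridization, RNA of one species is labeled and bound to probes made from another, and it binds less well where the sequences have diverged. A potato probe thus tends to favour potato RNA. The ratios were normalized, with array medians of -0.08 to -0.03, so a general tilt toward potato cannot be read from them. The authors judged that probe divergence did not limit detection, and they raise cross-hybridization of conserved probes as a possibility. What either meant for the 24 genes was not tested. The tables at hand gave no description of these genes, so they are ordered by level and pattern and no role is given.

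Every one of the 233 values that the 24 genes had on single arrays was below 0, and 221 of them were below -0.5. In 13 genes all measured arrays were below -0.5, and in 3 genes (LOC102585195, LOC102602939 and LOC102578902) all arrays were below -1. The mean of the 5 species ran from -2.58 in LOC102585195 to -0.80 in LOC102601363, or from 5.96-fold to 1.74-fold in favour of the query species if the likely direction holds. The median of these means was -1.43, against -1.14 for the 942 features of the whole array that met the same rule.

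**Figure D1:**
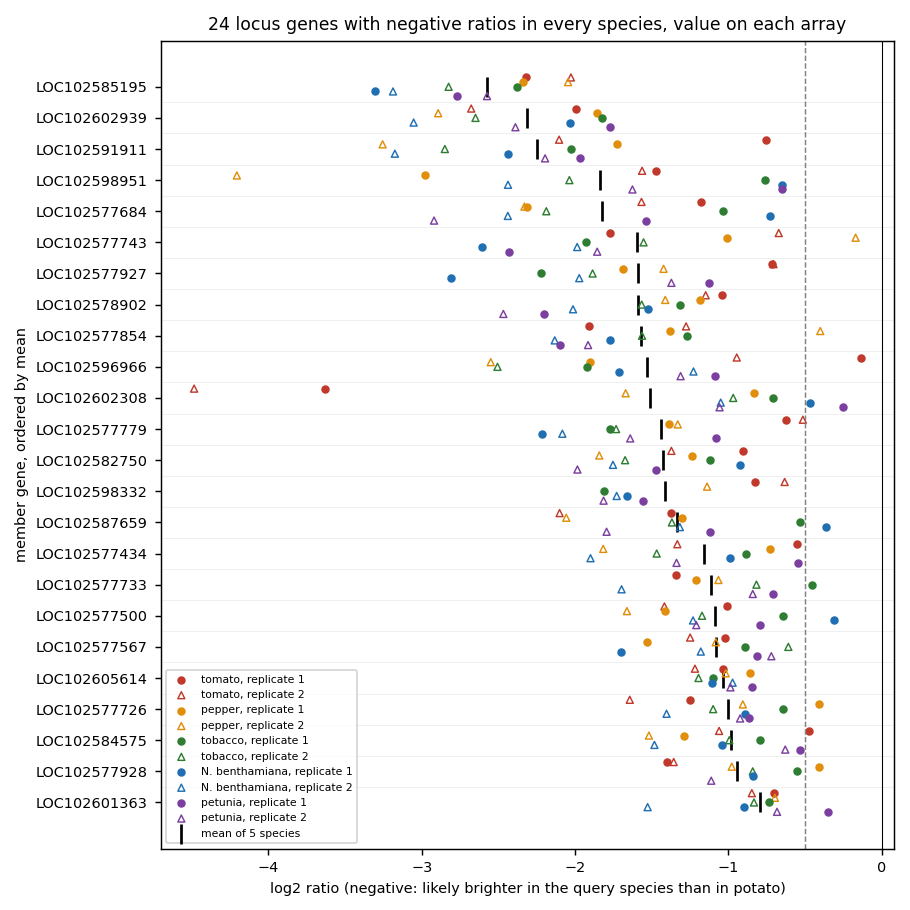
Log2 ratio (x axis) of each of the 24 genes (y axis, ordered by the mean of the 5 species, vertical black marks) on each array, with replicate 1 as filled circles, replicate 2 as open triangles, the threshold of -0.5 as a dashed line and 0 as a solid line. All 233 values lie below 0, and the points farthest to the left are those of LOC102602308 in tomato, at -4.49 and -3.63, and of LOC102598951 on the replicate 2 array of pepper, at -4.21.

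LOC102585195 was the lowest gene. Its log2 ratio was -2.32 and -2.03 in tomato, -2.34 and -2.05 in pepper, -2.38 and -2.82 in tobacco, -3.30 and -3.19 in N. benthamiana and -2.77 and -2.57 in petunia, for replicates 1 and 2 in that order, as throughout. Both N. benthamiana arrays were below all 8 others. LOC102602939 came next by its mean, with -1.99 and -2.68 in tomato, -1.86 and -2.89 in pepper, -1.82 and -2.65 in tobacco, -2.04 and -3.05 in N. benthamiana and -1.77 and -2.39 in petunia. Its 5 species overlapped, while its replicates did not: every replicate 2 value was below every replicate 1 value. LOC102591911 stood at -0.76 and -2.10 in tomato, -1.72 and -3.26 in pepper, -2.03 and -2.85 in tobacco, -2.43 and -3.18 in N. benthamiana and -1.97 and -2.19 in petunia. Its tomato arrays overlapped with those of pepper, tobacco and petunia but not N. benthamiana, and they lay farther apart than the means of tomato and pepper.

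In the fourth gene, pepper had the lowest values. LOC102598951 had -1.47 and -1.56 in tomato, -2.98 and -4.21 in pepper, -0.76 and -2.04 in tobacco, -0.65 and -2.44 in N. benthamiana and -0.65 and -1.62 in petunia. Its pepper arrays lay below the other 8, which overlapped one another. LOC102577684 had -1.18 and -1.57 in tomato, -2.31 and -2.33 in pepper, -1.03 and -2.19 in tobacco, -0.73 and -2.44 in N. benthamiana and -1.54 and -2.92 in petunia, and here the pepper arrays lay within the range of both N. benthamiana and petunia.

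LOC102577743, LOC102577927, LOC102578902 and LOC102577854 had nearly the same mean over species, -1.60 to -1.57, and different patterns. LOC102577743 was at -1.77 and -0.67 in tomato, -1.01 and -0.17 in pepper, -1.93 and -1.55 in tobacco, -2.60 and -1.99 in N. benthamiana and -2.43 and -1.86 in petunia. In each species its replicate 2 array was the higher one. LOC102577927 was at -0.72 and -0.70 in tomato, -1.68 and -1.42 in pepper, -2.22 and -1.88 in tobacco, -2.81 and -1.97 in N. benthamiana and -1.12 and -1.37 in petunia, so that both tomato arrays were above all others. LOC102578902 was at -1.04 and -1.15 in tomato, -1.19 and -1.41 in pepper, -1.31 and -1.56 in tobacco, -1.52 and -2.01 in N. benthamiana and -2.20 and -2.47 in petunia, with the petunia arrays below all others. LOC102577854 ranged from -2.13 in N. benthamiana to -0.40 in pepper, both on replicate 2 arrays, and each species overlapped with its neighbours in the order of the means.

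The remaining members had means between -1.53 and -0.80. Among them, LOC102596966 and LOC102577779 owed their place near the threshold to tomato, where their means were -0.54 and -0.57, and LOC102601363 to petunia, with -0.51. Just outside the threshold were LOC102590714, with -0.49 in N. benthamiana, LOC102577559, with -0.48 in tobacco, and LOC102581180, with -0.48 in pepper. Their means over the 5 species were -0.96, -0.74 and -0.78, beside -0.80 for the weakest member. There were 4 members (LOC102598332, LOC102577733, LOC102577928 and LOC102601363) that lacked a value on 1 or 2 arrays and entered no test, which left 20 of 24.

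Of the 24 members, 12 stood on several clones of the array. The rule averaged these same clones, so low clone values follow in part from the choice of members and are only a description. These 12 genes had 34 clones, of which 29 had a value in all 5 species. All 29 were below 0 in every species and 24 were below -0.5 in every species. In 4 of the 12 genes every clone met the rule alone, and in the other 8 at least 1 clone did not, either because a species mean was above -0.5 or because values were missing. The clones of a gene share its sequence and the same hybridizations, so they are not replicates of a species. Duplicate spots of 1 clone differed by a median of 0.11 in the members (363 pairs) and of 0.152 over all clones (82495 pairs).

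LOC102577434 had the most clones, 5, with means over species from -1.81 to -0.76. Its weakest clone was at -0.37 in petunia, while its strongest reached -2.33 in pepper. LOC102596966 had 4 clones between -1.95 and -1.28, and all 4 were highest in tomato, at -0.69 to -0.28. LOC102605614 had 4 clones, 1 of them without any value, and the other 3 lay between -1.22 and -0.79. The 3 clones of LOC102577567 lay between -1.24 and -0.93 and the 2 of LOC102577726 between -1.08 and -0.92. The clones of LOC102577779 were close as well, at -1.46 and -1.41, and of the 2 clones of LOC102577928 1 had no value.

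The clones of LOC102587659 did not go together. One had a mean of -0.46 over the 5 species, with -0.83 in pepper as the only species below -0.5, and the other had -2.21, with -3.02 in tomato and -2.52 in pepper. The second clone met the rule alone and the first did not.

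LOC102602308 needs the same care. Its log2 ratio was -3.63 and -4.49 in tomato, and in the other species it ran from -1.67 in pepper to -0.25 in petunia. Its 4 clones were not measured on the same arrays: only 1 clone had a value on all 10, and it stood at -0.65 in pepper, -0.72 in petunia, -0.74 in N. benthamiana, -0.93 in tobacco and -2.47 in tomato. The other 3 had -4.78, -4.57 and -4.77 in tomato and lacked values in tobacco or N. benthamiana or in both, so the gene's tomato mean of -4.06 averages other clones than its N. benthamiana mean of -0.76.

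**Figure D2:**
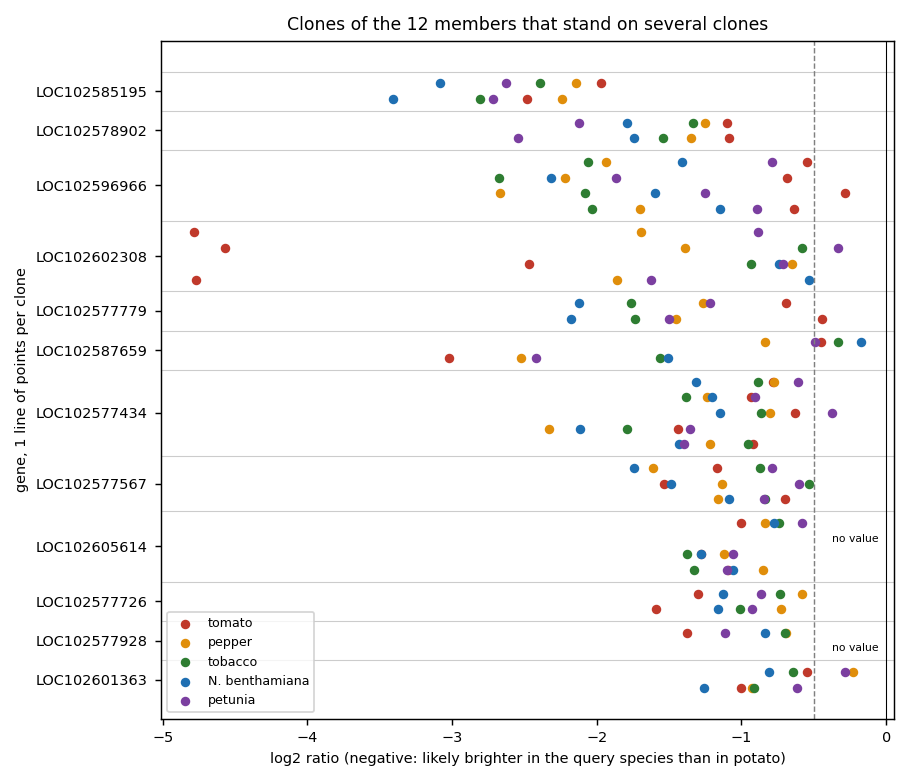
Mean log2 ratio (x axis) per query species (colours) for each clone of the 12 genes with several clones (y axis, 1 line of points per clone), with the threshold of -0.5 as a dashed line. The 2 clones of LOC102587659 lie apart (means of -0.46 and -2.21), while those of LOC102577779 lie together (-1.46 and -1.41), and 2 clones had no value.

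Potato and a gene's dye effect are common to all arrays of a replicate, so they cancel in differences among the 5 query species. With 1 array left out, potato cancels only in part. Its species then rests on 1 potato extract, and those fits among species had no replicate term. Array spread did not cancel. The median absolute deviation over all features was 0.519 on tomato replicate 1 and 0.707 on N. benthamiana replicate 2. A gene far below 0 can thus gain a species difference from its level. The differences are not fully free of the choice of members either, since the rule bounded all 5 means from above. In 7 of the 20 members tested the species differed in limma's F test (adjusted p under 0.05, Benjamini-Hochberg over 7561 features), a share close to the 36.8% of all features called. With the replicate as a block, 15 of the 20 were called, against 67.5% of all features. Among LOC genes in general 120 of 295 were called, and 22 of 60 of those with all species above 0.5. Of all features below -0.5 in all species, 224 of 782 (28.6%) were called, and 60.7% with the block. The range between the highest and the lowest species had a median of 1.004 in the 24 members, 0.88 over all features and 0.78 in the 942 features that met the same rule. Single arrays mattered, since fewer members were called without either tomato array (replicate 1 or replicate 2). Such a fit leaves 1 array in a species. The share of all features called in it was not counted, so the drop is not a result about the members.

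In tomato, 4 members were above the mean of the other 4 species and 1 was below it. Of all features, 16.1% were higher and 13.9% lower in this comparison. The 4 higher ones thus lay closer to potato in tomato than in the other query species. LOC102596966 had the largest such difference, 1.24 (standard error 0.28, adjusted p = 0.0109 from limma), with tomato at -0.13 and -0.94, pepper at -1.90 and -2.55, tobacco at -1.92 and -2.51, N. benthamiana at -1.71 and -1.23 and petunia at -1.09 and -1.31. Both tomato arrays were above the other 8, but without tomato replicate 1 the difference fell to 0.83 and the call was lost. That fit had no replicate term, and the gene's own difference of replicate 2 from replicate 1 was -0.36 (not called). The replicate 2 value of this gene in N. benthamiana came from a single clone, which stood at -1.97 on replicate 1. Its replicate 2 value in pepper also lacked a clone. LOC102577927 was higher in tomato by 1.10 (standard error 0.22, adjusted p = 0.00754 from limma) and LOC102578902 by 0.62 (standard error 0.18, adjusted p = 0.0308 from limma). Without either tomato array both calls were lost, with an adjusted p of 0.075 in LOC102577927 and of 0.207 and 0.143 in LOC102578902 without replicate 1 and replicate 2. The call of LOC102578902 was also lost after scaling of the arrays (difference 0.40, adjusted p = 0.0528) and without the replicate 2 array of pepper, tobacco or petunia (0.0519 to 0.0537). LOC102577779 was higher by 1.09 (standard error 0.17, adjusted p = 0.00286 from limma), with -0.62 and -0.51 in tomato, -1.39 and -1.33 in pepper, -1.77 and -1.73 in tobacco, -2.22 and -2.08 in N. benthamiana and -1.08 and -1.64 in petunia. Its standard error was the smallest among the 7 members called by the F test, and its tomato arrays lay above the other 8. In limma with the replicate block, all 4 stayed called in tomato. The adjusted p was 0.00108 in LOC102596966, 0.000892 in LOC102577927, 0.00321 in LOC102578902 and 0.000365 in LOC102577779.

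The member below the others in tomato was LOC102602308, by -3.18 (standard error 0.32, adjusted p = 0.000419 from limma). The clone with a value on all arrays gave a difference of -1.71 (adjusted p = 0.0113 from limma) and its F test among species missed the threshold (adjusted p = 0.0542). With the block, 11 members differed in tomato in either direction, against 47.2% of all features. In the main fit, which has no block, the count was 2 without tomato replicate 1 and 3 without tomato replicate 2.

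In pepper, 1 member was lower and 1 higher than the other species, where 9.8% of all features were lower and 7.5% higher. LOC102598951 was lower by -2.19 (standard error 0.52, adjusted p = 0.0203 from limma), although its F test among the 5 species missed the threshold (adjusted p = 0.064, and 0.000491 with the replicate block). LOC102577743 was higher by 1.26 (standard error 0.34, adjusted p = 0.032 from limma). Its call was lost without either pepper array, without tobacco replicate 1 and without petunia replicate 1, with adjusted p from 0.0525 to 0.261, and after scaling of the arrays (0.065). Without pepper replicate 2 neither gene was called. With the block, 9 members differed in pepper, against 32.7% of all features. Both named genes were among them, with an adjusted p from limma of 0.000118 in LOC102598951 and 0.0002 in LOC102577743.

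In N. benthamiana, 3 members were lower and none was higher, where 3.23% of all features were lower and 3.49% higher. They were LOC102577927, by -0.999 (standard error 0.22, adjusted p = 0.0342), LOC102577779, by -0.89 (standard error 0.17, adjusted p = 0.0217), and LOC102585195, by -0.84 (standard error 0.18, adjusted p = 0.0306), all from limma. The first 2 of these were also the members called higher in tomato, and the contrasts share arrays. None of the 3 was called once the arrays had been scaled to equal spread, with adjusted p from 0.0746 to 0.225, and the median absolute deviation over all features was widest, 0.707, on the replicate 2 array of N. benthamiana. None was called either without tomato replicate 2 or without N. benthamiana replicate 1, and 1 each without tomato replicate 1, pepper replicate 2, tobacco replicate 1, N. benthamiana replicate 2 or petunia replicate 2. With the block 7 members differed, against 20.8% of all features. Of these 7, 5 were lower and 2 higher, against 9.40% and 11.4% of all features. The 3 named genes were among the 5. Their adjusted p with the block was 0.00463 in LOC102577927, 0.00366 in LOC102577779 and 0.00556 in LOC102585195, from limma.

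In petunia, LOC102578902 was lower by -0.94 (standard error 0.18, adjusted p = 0.0171 from limma), and no member was higher. Of all features, 4.48% were lower and 5.89% higher. No member was called without either petunia array, and with the block 5 were, against 26.6% of all features. Of those 5, 2 were lower and 3 higher, and over all features 13.3% were called in each direction. LOC102578902 was among the lower ones (adjusted p = 0.00089 from limma with the block). In tobacco no member was called by limma in either direction (4 of 20 at an unadjusted p under 0.05, against 22.9% of all features), where 2.53% of all features were lower and 2.21% higher. With the block 4 were called in tobacco, against 21.8%.

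**Figure D3:**
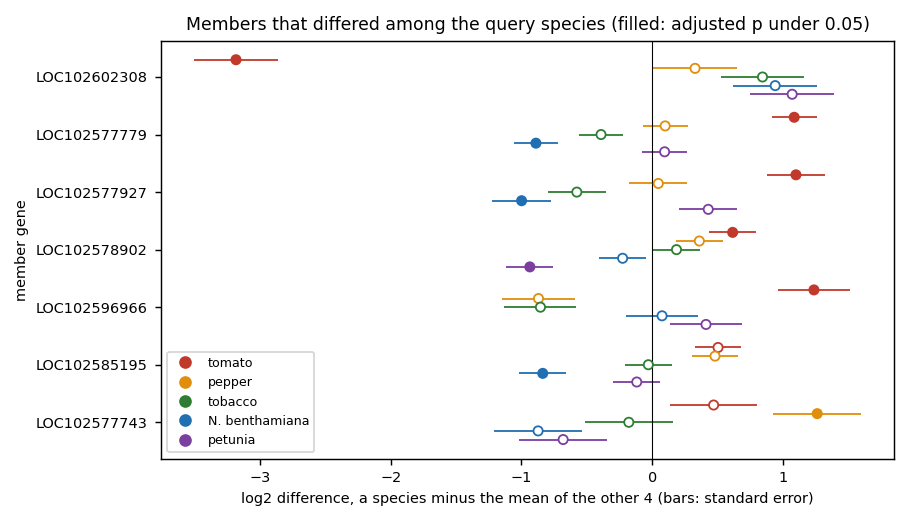
Log2 difference (x axis) of a query species (colours) from the mean of the other 4, with standard errors as bars, for the 7 members whose species differed in the F test (y axis), and filled points where the adjusted p was under 0.05. LOC102602308 stands far to the left in tomato at -3.18, and tomato lies to the right in LOC102596966, LOC102577927, LOC102577779 and LOC102578902 at 0.62 to 1.24.

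N. benthamiana was the species with the lowest mean in 10 of the 24 members (41.7%), and in 20.4% of the 942 features that met the same rule. Tomato had the highest mean, closest to potato, in 10 of 24 (41.7%), and in 38.7% of those features. After the arrays had been centred and scaled to equal spread, N. benthamiana was lowest in 7 of 24 (29.2%) and so was tomato, and tomato was highest in 6 (25.0%). Among the 942 features the scaled shares were 12.8% for N. benthamiana as the lowest, 25.8% for tomato as the lowest and 26.1% for tomato as the highest. The median member stood at -1.51 in N. benthamiana, -1.40 in tobacco, -1.33 in pepper, -1.22 in petunia and -1.22 in tomato. Neighbours in this order differed by less than the median difference between the arrays of a species, which was 0.26 to 0.60 in the members.

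Many members differed between replicates, and mostly in 1 direction. The rule used the mean of both arrays and not their difference. Because replicate 2 arrays had the wider spread, a rule for low means can favour genes that are lower on replicate 2. The counts below are thus not free of the choice of members. In limma, with a term for each species, 10 of the 20 members tested were lower on replicate 2 than on replicate 1 arrays, against 14.7% of all features, and 1 was higher, against 13.3% of all features. Over all 24 members, 13 were lower on replicate 2 in each species with both arrays, 1 was higher in each and 10 were mixed. The median difference of the 20 was -0.37, and it was -0.03 over all features. The shift was not confined to the members: of all LOC genes tested, 71 of 295 (24.1%) were lower and 16 (5.42%) higher, with a median of -0.16, and of those above 0.5 in all species 14 of 60 (23.3%) were lower.

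LOC102587659 was lower on replicate 2 by -0.79 (standard error 0.10, adjusted p = 0.00131 from limma) and in 5 of 5 species. It stood at -1.37 and -2.10 in tomato, -1.30 and -2.06 in pepper, -0.53 and -1.37 in tobacco, -0.36 and -1.32 in N. benthamiana and -1.12 and -1.79 in petunia. These values average 2 clones that shifted unequally, though both were lower on replicate 2 in every species. In tomato 1 clone had -0.34 and -0.55 and the other -2.40 and -3.65. LOC102577434 was lower by -0.83 (standard error 0.11, adjusted p = 0.00134 from limma), with -0.55 and -1.33 in tomato, -0.73 and -1.82 in pepper, -0.88 and -1.47 in tobacco, -0.99 and -1.90 in N. benthamiana and -0.55 and -1.34 in petunia. All replicate 1 values of this gene were above all its replicate 2 values. LOC102602939 was lower by -0.84 (standard error 0.11, adjusted p = 0.00134 from limma), also without overlap. Of the 10 members called lower, LOC102598951 had the largest difference, -1.07 (standard error 0.20, adjusted p = 0.00436 from limma), and LOC102577726 the smallest, -0.38 (standard error 0.11, adjusted p = 0.0273 from limma). The latter call was lost after scaling of the arrays (-0.29, adjusted p = 0.064) and without any 1 array of pepper, tobacco or N. benthamiana (0.0708 to 0.101), and that of LOC102577684 without either tobacco array (0.0536 and 0.0530). LOC102577743 went the other way, with 0.70 (standard error 0.12, adjusted p = 0.00385 from limma) in 5 of 5 species.

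**Figure D4:**
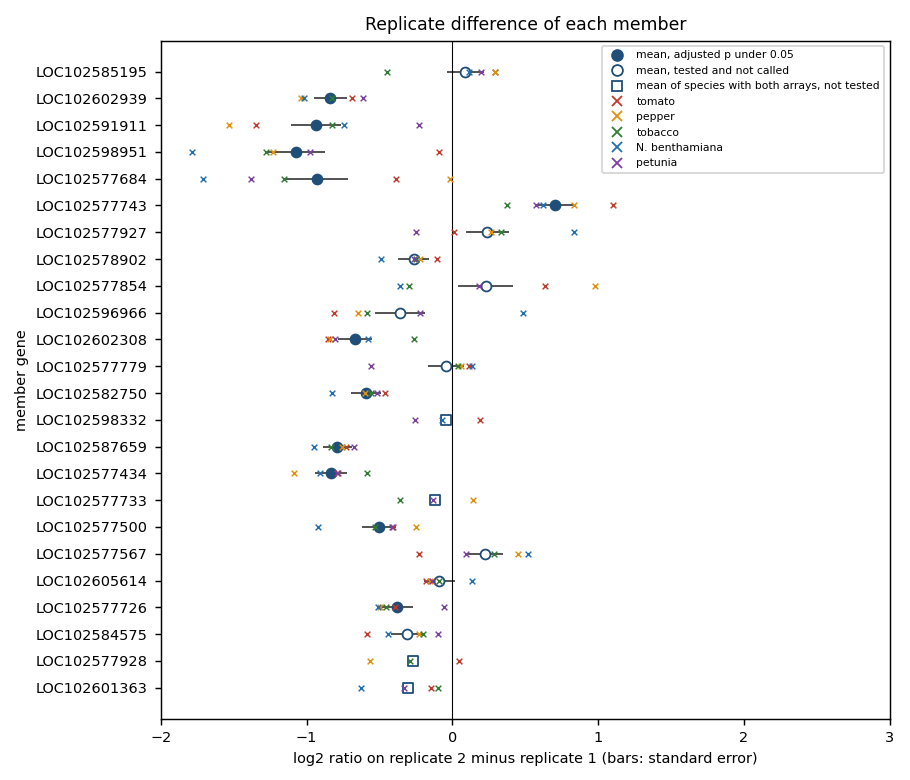
Log2 ratio on replicate 2 minus that on replicate 1 (x axis) for the 24 genes (y axis), as the mean with its standard error (large points, filled where the adjusted p was under 0.05, squares where the gene was not tested) and in each species (crosses). In 10 genes the mean is called below 0, down to -1.07, and in LOC102577743 it is called above 0, at 0.70.

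This comparison sets 1 potato extract, its query extracts and hybridizations against the other, and is no condition of the study. Values were also spread more widely on replicate 2 arrays, where the median absolute deviation over all features was 0.543 to 0.707, than on replicate 1 arrays, where it was 0.519 to 0.592. Of the features below -0.5 in all species, 237 of 782 (30.3%) were lower on replicate 2, and of those above 0.5 in all species 28.9% of 1099 were higher. After scaling to equal spread, 9 of the 20 members (45%) were called lower, against 17.3% of the features below -0.5 in all species, and the median difference of the members was -0.26. In that scaling 86 of 295 LOC genes (29.2%) were lower, and of those above 0.5 in all species 23 of 60 (38.3%), with a median of -0.27, close to that of the members. Without the species term none was called by limma in either direction (7 of 20 at an unadjusted p under 0.05, against 12.9% of all features). Hardly any feature was called in that fit: 0.07% of all features were lower and 0.17% higher.

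The replicates also bore on which genes met the rule. On replicate 1 arrays, 10 of 116 member values were at or above -0.5, and on replicate 2 arrays 2 of 117. Applied to the replicate 1 arrays alone, the rule took 16 LOC genes, 14 of them members. Applied to the replicate 2 arrays alone, it took 23, 19 of them members, and 12 genes met it on both. Those 12 had to be members, since the mean of values below -0.5 is also below -0.5.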

How the data were processed

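Arrays were hybridized and scanned by the authors, and GenePix was used for spot signals. Per the methods, spots that were not found in a channel, had too many saturated pixels or were too small were removed, local background was subtracted and the data were normalized by quantiles in limma (version not given in the sources used here). For each of 32448 spots, 1 log2 ratio was deposited. Depth is not defined for arrays, and their number, 2 per species, limits the precision. All columns were mapped to an array.

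All spots of a single gene symbol were averaged per array. Clones with several symbols (90) or none (14455) were kept as 1 feature per clone, which gave 14975 features, 7561 of them with a value on all 10 arrays (8936 to 10128 features per array, array medians of -0.08 to -0.03, correlations of 0.655 to 0.941 over 45 pairs of arrays). One clone whose several symbols included a member was not used for that member. Tests used limma 3.58.1 in R 4.3.3: lmFit over all 10 arrays with 1 coefficient per species, eBayes and Benjamini-Hochberg adjustment over the 7561 features, called at 0.05. The fits were run on simulated data whose errors were independent between arrays. Those data lack the pairing described next, so they do not show how the unpaired main fit behaves under it. Same-numbered arrays share a potato extract by their labels, and their deviations from the species means correlated at 0.286 to 0.677 over 10 species pairs, so the arrays are paired by replicate number. The main fit among species did not use this pairing, and the fits with the block did. The consensus correlation of the replicate as a random block was 0.37.

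The members, lists and tests were chosen with earlier results of these data known. Members were named by a rule: the 10 lowest means, the 8 smallest p-values of the F test, the 4 smallest of the replicate test among those called, up to 8 genes by number of clones, and the 3 genes on either side of the threshold. Others are named where a sentence singles them out. Gene groups and leaf or tuber markers set by key words could not be applied, because no gene descriptions were at hand, and no sequences are printed for the same reason. Alternatives covered centring and scaling of arrays, the median of spots, clones in place of genes, the block, thresholds, the prior and leaving out each array. Counts and plots used Python 3.11.15, pandas 2.3.3, numpy 2.4.6 and matplotlib 3.10.9.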

Additional observations from a re-analysis of the deposited data

Results flagged for a closer look

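In all, 7 members had effects against potato that differed between query species by limma's F test (adjusted p under 0.05). The gap between their highest and lowest species means was 3.40 in LOC102602308, 1.71 in LOC102577743, 1.69 in LOC102596966, 1.68 in LOC102577927, 1.58 in LOC102577779, 1.24 in LOC102578902 and 1.07 in LOC102585195, on the log2 scale. The lowest species was tomato in LOC102602308, pepper in LOC102596966, petunia in LOC102578902 and N. benthamiana in the other 4. In LOC102602308 the species means rest on different clones, and in LOC102596966 some arrays lacked clones. With the replicate block all 7 stayed called (adjusted p from 5.29e-06 to 0.00514, limma's F test), where 67.5% of all features were called. The calls of LOC102585195 and LOC102577743 were lost once the arrays had been scaled (adjusted p = 0.294 and 0.131 from limma), and that of LOC102585195 also with a trend and a robust prior (0.129). Leaving out 1 array lost the call of LOC102577743 in 8 cases (highest adjusted p 0.141), of LOC102585195 in 5 (0.0737), of LOC102578902 in 3 (0.0747), of LOC102577927 in 2 (0.0533) and of LOC102596966 in 1 (0.0753).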

How the results depend on the processing

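Of the 24 members, 12 remained when all 10 single arrays had to be present and below -0.5, and leaving out 1 array gave 20 to 25 genes. Thresholds of -0.4 and -0.6 gave 36 and 19 genes. No mean over species changed sign under any alternative run, which the rule made likely by asking for all 5 species means below -0.5. The replicate block raised the counts of members that differed among species from 7 to 15 (14 as a random block), in tomato from 5 to 11 (8), in pepper from 2 to 9 (7), in tobacco from 0 to 4 (2), in N. benthamiana from 3 to 7 (6) and in petunia from 1 to 5 (4). At an adjusted p under 0.01 these counts were 2, 3, 0, 0, 0 and 0, and the share of all features called at 0.01 was not counted. Scaling the arrays gave 0 members in N. benthamiana and 2 in petunia, the median of spots 2 in petunia, and clones in place of genes 4 in pepper, 1 in tobacco, 2 in petunia and 2 higher on replicate 2. With clones, a gene was counted by its clone with the smallest adjusted p, which favours higher counts in genes with several clones. Without the species term 0 members were lower and 0 higher on replicate 2, where 0.07% and 0.17% of all features were. The counts after leaving out 1 array, given next, have no share of all features beside them. In the tests among species they rest on 1 array in a species. Leaving out 1 array gave 3 to 7 members by the F test, 2 to 6 in tomato, 0 to 3 in pepper, 0 in tobacco, 0 to 2 in N. benthamiana, 0 to 1 in petunia, and 8 to 10 lower and 1 higher on replicate 2. The difference between replicates, -0.04 in LOC102577779 and -0.09 in LOC102605614, turned to 0.12 and 0.0040 after scaling, and that of LOC102577779 ran from -0.088 to 0.085 when 1 array was left out (above 0 without either petunia array). None of these was called, and the cause was not tested. The rule on single replicates and the scaled order of species were tried after the data had been seen. With 2 arrays per species and 1 potato extract per replicate, the spread between plants is not known.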
